A study of Schizosaccharomyces japonicus with 6 samples.

Results

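In *S. japonicus*, 8 genes for enzymes that handle GABA (gamma-aminobutyric acid), glutamate and glycine were followed in *pab2*Δ cells, *clr4-1* cells and WT cells. They were taken by gene symbol, and *SJAG_03293* by its locus tag, from a table of 5272 genes. The choice named 9 genes, and *gdh2* was not analysed here. The choice was made with their values in both mutants known, so the levels of these 8 genes below describe the 6 libraries and are given without p-values. Their calls are counted once, beside the share of all genes called, and are not evidence independent of the choice.

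*pab2*Δ cells lack the gene for the nuclear poly(A)-binding protein Pab2. *clr4-1* cells carry a temperature-sensitive allele of *clr4*, obtained by random mutagenesis, with an altered SET domain in the histone H3 Lys9 methyltransferase Clr4, which this species needs to live. WT is strain NIG5572. All 3 strains were grown in rich medium (YES) at 30°C, and total RNA was isolated and sequenced from 2 biological replicates of each. The deleted gene *pab2* was at 0 in each *pab2*Δ library, against 145 and 142 FPKM (fragments per kilobase of gene model, scaled to library size, a level comparable between genes) in WT. *clr4* had 19.6 and 23.3 FPKM in *clr4-1*, against 9.34 and 9.48 FPKM in WT, so its level does not check that label. Between 276 and 344 genes per library were listed at 0. The number of reads behind the values is unknown.

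As background, GABA is broken down in a pair of steps. GABA transaminase, encoded by *uga1*, moves the amino group of GABA to 2-oxoglutarate, which gives glutamate and succinate semialdehyde. Succinate-semialdehyde dehydrogenase then makes succinate, a metabolite of the tricarboxylic acid cycle. Glutamate and glutamine are the amino group donors of the cell: NADP-dependent glutamate dehydrogenase (*gdh1*), glutamine synthetase (*gln1*) and glutamate synthase (*glt1*) build them from ammonium and 2-oxoglutarate. These 3 enzymes therefore assimilate nitrogen and do not break glutamate down. The glycine cleavage complex of mitochondria takes glycine apart with its P (*gcv2*), T (*gcv1*), H (*gcv3*) and L (*dld1*) proteins. The names and roles are those of the *S. pombe* orthologs given in the table.

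The GABA pair was far below WT in both mutants, the 3 nitrogen assimilation genes separated into a pair that was lowest in *pab2*Δ and *glt1*, which moved little, and the glycine cleavage genes differed among themselves. In *pab2*Δ the 8 genes held 0.0681% and 0.0705% of all FPKM, in *clr4-1* 0.0804% and 0.0822%, and in WT 0.152% and 0.158%. Bulk RNA cannot tell less RNA per cell from fewer cells that express a gene. The 2 libraries of a strain lay close together for each of the 8 genes, and between any 2 strains the libraries did not overlap. That last point is common in these data. Between *pab2*Δ and WT 86.9% of the 4899 genes tested did not overlap either, between *clr4-1* and WT 73.5%, and between *pab2*Δ and *clr4-1* 89.2%.

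**Figure D1:**
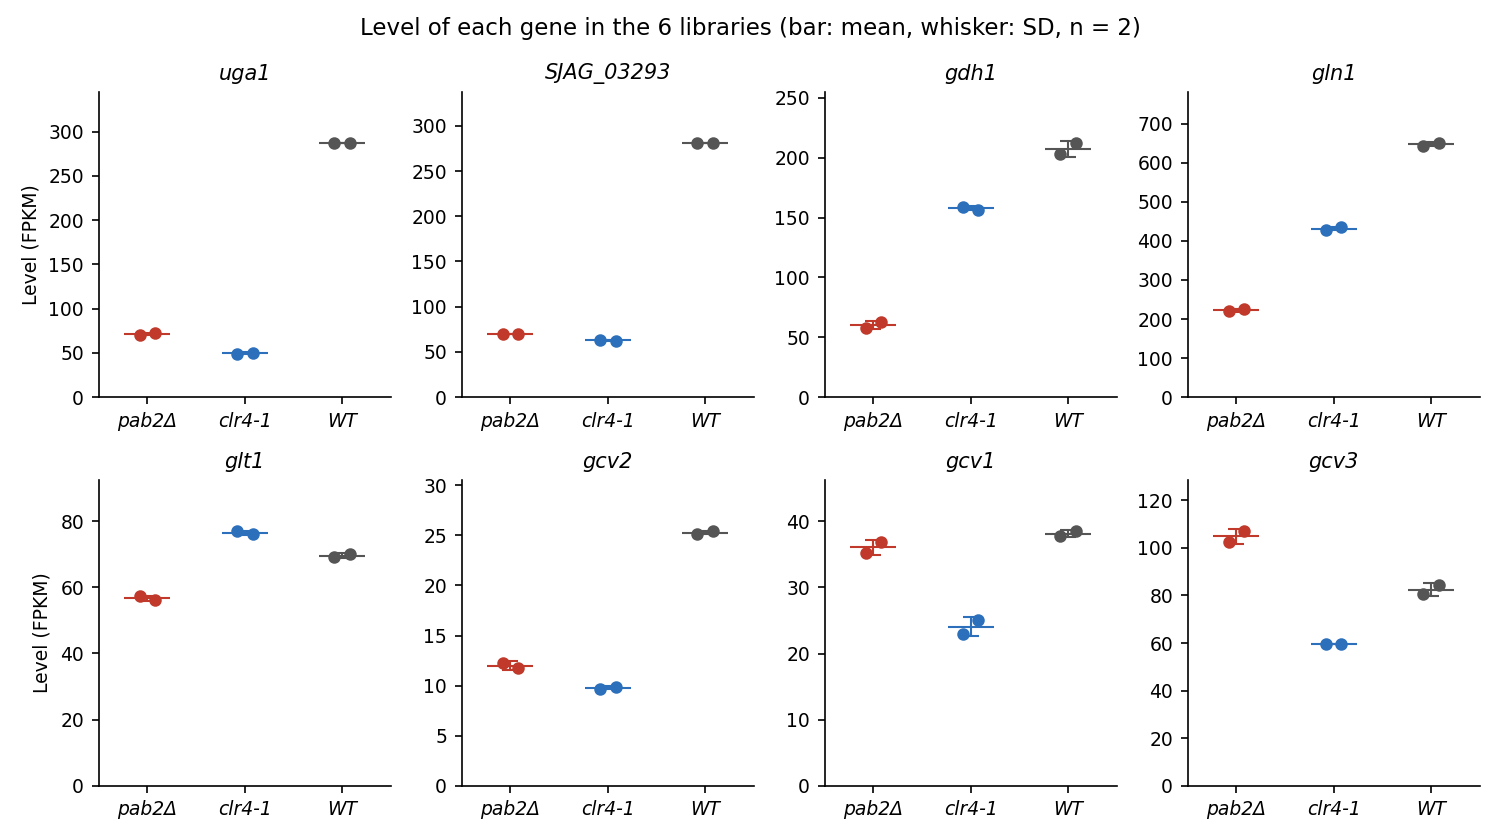
Level of each gene in FPKM (vertical axes, each from 0) in *pab2*Δ, *clr4-1* and WT. Points are the 2 libraries of a strain, the bar is their mean and the whisker their SD. *uga1* and *SJAG_03293* are low in both mutants, *gdh1* and *gln1* are lowest in *pab2*Δ, and *gcv3* is highest in *pab2*Δ.

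*uga1*, the GABA transaminase gene, had 70.7 and 72.04 FPKM in *pab2*Δ, 49.2 and 50.4 FPKM in *clr4-1*, against 287 and 287 FPKM in WT. *SJAG_03293*, a predicted succinate-semialdehyde dehydrogenase gene, had 69.9 and 70.1 FPKM in *pab2*Δ, 63.2 and 62.2 FPKM in *clr4-1*, against 281 and 281 FPKM in WT. With the deposited scaling both genes were therefore lowest in *clr4-1*, a little higher in *pab2*Δ and far higher in WT. On the log2(FPKM + 1) scale *uga1* was -1.99 from WT in *pab2*Δ (standard error 0.028) and -2.50 from WT in *clr4-1* (standard error 0.028). For *SJAG_03293* these differences were -1.99 and -2.15 (standard error 0.026 each). As a ratio of means, *uga1* was 4.02-fold lower than WT in *pab2*Δ and 5.76-fold lower in *clr4-1*, and *SJAG_03293* was 4.01-fold and 4.48-fold lower.

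The genes of these consecutive steps had nearly the same level within a library. The ratio of *uga1* to *SJAG_03293* was 1.01 and 1.03 in *pab2*Δ and 1.02 and 1.02 in WT, and it was lower in *clr4-1*, at 0.779 and 0.811. In WT the mean of *uga1* lay at the 93.8th percentile of all genes in the table, and in *pab2*Δ and *clr4-1* at the 75.9th and 71.4th. Both mutants were set against the same WT libraries, so their differences from WT are not independent of each other. In the direct comparison *uga1* was 0.51 higher in *pab2*Δ than in *clr4-1* on the log2 scale, and *SJAG_03293* was 0.16 higher. After TMM scaling, which removes the shift of most genes described below, *uga1* was still 0.23 higher, whereas *SJAG_03293* was lower in *pab2*Δ (-0.12).

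*gdh1*, which makes glutamate from ammonium, had 58.1 and 62.8 FPKM in *pab2*Δ, 159 and 157 FPKM in *clr4-1*, against 203 and 212 FPKM in WT. *gln1*, which makes glutamine and was the most abundant of the 8, had 220.2 and 226 FPKM in *pab2*Δ, 428 and 435 FPKM in *clr4-1*, against 644 and 651 FPKM in WT. For both genes the order was *pab2*Δ, *clr4-1*, WT from low to high, the reverse of *uga1* in the 2 mutants. For *SJAG_03293* the order of the mutants depended on the scaling, as given above. *gdh1* differed from WT by -1.76 in *pab2*Δ and by -0.39 in *clr4-1* on the log2 scale (standard error 0.045 each). *gln1* differed by -1.53 and -0.58 (standard error 0.023 each). *gdh1* was 3.44-fold lower than WT in *pab2*Δ and 1.32-fold lower in *clr4-1*. *gln1* had 0.344 of the WT mean in *pab2*Δ and 0.666 of it in *clr4-1*.

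*glt1*, the glutamate synthase gene that works in series with *gln1*, had 57.2 and 56.0 FPKM in *pab2*Δ, 76.9 and 75.99 FPKM in *clr4-1*, against 69.0 and 70.1 FPKM in WT. It lay below WT in *pab2*Δ (-0.29 on the log2 scale) and above WT in *clr4-1* (0.13, standard error 0.030 each). The ratio of *gln1* to *glt1* was 3.85 and 4.03 in *pab2*Δ, 5.57 and 5.72 in *clr4-1*, and 9.33 and 9.29 in WT. The ratio of *gdh1* to *glt1* was 1.02 and 1.12 in *pab2*Δ, 2.07 and 2.06 in *clr4-1*, and 2.94 and 3.03 in WT.

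**Figure D2:**
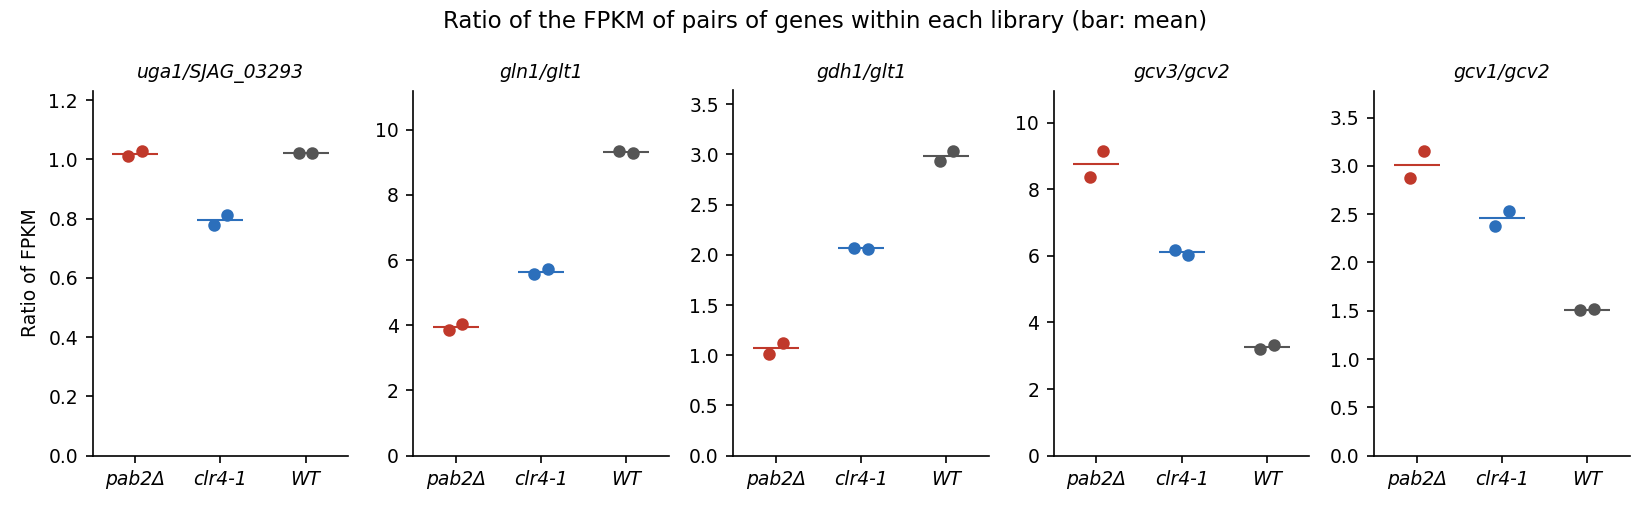
Ratio of the FPKM of 2 genes within 1 library (vertical axes, each from 0) in *pab2*Δ, *clr4-1* and WT. Points are libraries and bars their means. The ratio of *uga1* to *SJAG_03293* is close to 1.02 in *pab2*Δ and WT, the ratios to *glt1* are lowest in *pab2*Δ, and the ratios to *gcv2* are highest in *pab2*Δ.

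Of the glycine cleavage genes, *gcv2*, which encodes the decarboxylating P protein, had 12.3 and 11.7 FPKM in *pab2*Δ, 9.66 and 9.88 FPKM in *clr4-1*, against 25.2 and 25.4 FPKM in WT. It was low in both mutants, by -1.02 in *pab2*Δ and -1.29 in *clr4-1* (standard error 0.046 each). *gcv1*, for the aminomethyltransferase (T protein), had 35.3 and 36.9 FPKM in *pab2*Δ, 23.0 and 25.1 FPKM in *clr4-1*, against 37.8 and 38.5 FPKM in WT. Its log2 difference from WT was -0.079 in *pab2*Δ and -0.65 in *clr4-1* (standard error 0.051 each). *gcv3*, for the lipoyl carrier (H protein), had 103 and 107 FPKM in *pab2*Δ, 59.7 and 59.5 FPKM in *clr4-1*, against 80.5 and 84.3 FPKM in WT. It stood above WT in *pab2*Δ (0.34) and below WT in *clr4-1* (-0.46, standard error 0.037 each).

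The RNA levels of these subunit genes of 1 complex therefore did not keep their proportions. The ratio of *gcv3* to *gcv2* was 8.36 and 9.14 in *pab2*Δ, 6.18 and 6.03 in *clr4-1*, and 3.20 and 3.32 in WT. That of *gcv1* to *gcv2* was 2.87 and 3.15 in *pab2*Δ, 2.38 and 2.54 in *clr4-1*, and 1.504 and 1.515 in WT. In all libraries *gcv2* was the scarcest and *gcv3* the most abundant of the 3. Summed over the 3 genes, FPKM was 150 and 156 in *pab2*Δ, 92.4 and 94.5 in *clr4-1*, and 143 and 148 in WT. *dld1*, whose L protein also serves other mitochondrial dehydrogenase complexes, had 177 and 176 FPKM in *pab2*Δ, 147 and 147 FPKM in *clr4-1*, against 162 and 158 FPKM in WT. It was chosen as the remaining subunit and differed from WT by 0.14 in *pab2*Δ (adjusted p = 0.00295, limma) and by -0.12 in *clr4-1* (adjusted p = 0.0135, limma). After TMM scaling its difference in *pab2*Δ turned to -0.070 (adjusted p = 0.0469, limma), and that in *clr4-1* was -0.053 and no longer called (adjusted p = 0.142, limma).

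**Figure D3:**
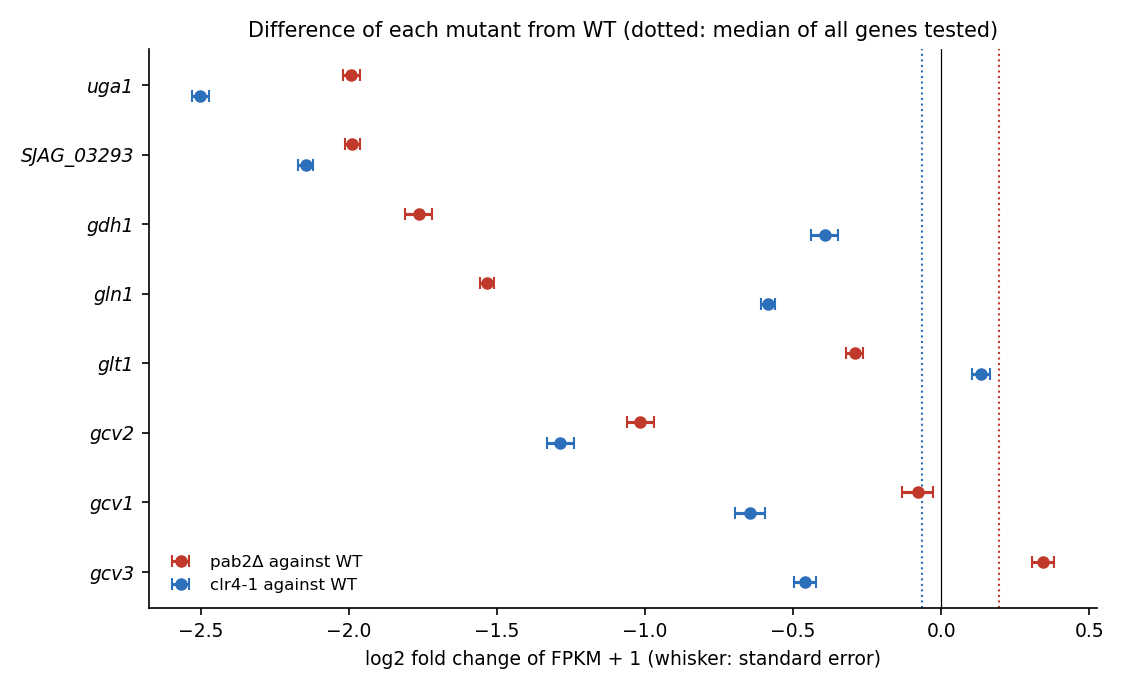
Log2 fold change of FPKM + 1 from WT (horizontal axis) for each gene, in *pab2*Δ and in *clr4-1*. Points are estimates over 2 libraries per strain, whiskers are standard errors, and dotted lines are the medians of all 4899 genes tested, 0.19 in *pab2*Δ and -0.064 in *clr4-1*. With the deposited scaling shown, *gdh1* and *gln1* lie further below WT in *pab2*Δ, and *uga1*, *SJAG_03293* and the 3 *gcv* genes in *clr4-1*. After TMM scaling *SJAG_03293* was -2.20 from WT in *pab2*Δ and -2.08 in *clr4-1*, and *gcv2* was -1.21 and -1.23.

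Most genes of the table were slightly above WT in *pab2*Δ. The median log2 difference of the 4899 genes tested was 0.19 in *pab2*Δ against WT, -0.064 in *clr4-1* against WT and 0.27 in *pab2*Δ against *clr4-1*, and TMM scaling brought these to -0.0079, -0.0017 and 0.0086. For the 8 genes the medians were -1.28, -0.62 and 0.21. Relative to the shifted median, the distance of *gcv3* from WT in *pab2*Δ shrank to 0.13 after TMM scaling and that of *gcv1* grew to -0.29. *glt1* was then -0.50 from WT in *pab2*Δ, whereas after scaling to equal totals it was -0.087 and no longer called. In *clr4-1* the 8 genes kept their direction under TMM scaling, with *uga1* at -2.44 and *glt1* at 0.20.

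By limma with Benjamini-Hochberg adjustment over all 4899 genes at 0.05, 6 of the 8 genes were called lower in *pab2*Δ than in WT and 1 (*gcv3*) was called higher, where 19.9% of all genes were called lower and 53.8% higher. In *clr4-1* 7 were called lower and 1 (*glt1*) higher, where 27.5% of all genes were called lower and 15.1% higher. *gcv1* was the gene not called in *pab2*Δ, and it was called lower there after TMM scaling. The call of *glt1* in *clr4-1* was lost when any 1 of the 4 libraries was left out. Between *pab2*Δ and *clr4-1*, 5 genes were called higher in *pab2*Δ (61.1% of all genes) and 3, *gdh1*, *gln1* and *glt1*, were called lower (17.4% of all genes). After TMM scaling 3 genes were called higher, *gcv2* was not called (0.015), *SJAG_03293* was called lower, and 1688 of the 4899 genes were called higher. A more than 2-fold decrease in every pair of a mutant and a WT library was met by *uga1*, *SJAG_03293*, *gdh1*, *gln1* and *gcv2* in *pab2*Δ (2.02% of all genes with a ratio) and by *uga1*, *SJAG_03293* and *gcv2* in *clr4-1* (1.18%). Between *pab2*Δ and *clr4-1* such a decrease was met by *gdh1* (2.2% of all genes with a ratio). Because these contrasts were in view when the genes were chosen, the counts add nothing to the values above.

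The enzymes around these steps were taken from lists made by function, 48 genes in all, of which 47 had a mean of at least 1 FPKM and were tested. In *pab2*Δ 18 of the 47 rose and 21 fell, beside 53.8% and 19.9% of all genes. After TMM scaling 10 rose and 28 fell, where 1612 and 1692 of all 4899 genes did. In *clr4-1* 9 rose and 22 fell, beside 15.1% and 27.5%. After TMM scaling 9 rose and 16 fell, where 1030 and 865 of all 4899 genes did. These TMM numbers of all genes also apply to the lists and markers below. The median log2 difference from WT of the 47 genes was -0.020 in *pab2*Δ and -0.12 in *clr4-1*. Some genes stand in more than 1 list and count once among the 48. The lists were made with earlier results of these data known.

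The table holds another gene described as a succinate-semialdehyde dehydrogenase, *SJAG_00674*, and it went the other way from *SJAG_03293*. *SJAG_00674* had 19.2 and 19.4 FPKM in *pab2*Δ, 3.75 and 3.73 FPKM in *clr4-1*, against 2.75 and 3.22 FPKM in WT. It rose in *pab2*Δ by 2.35 on the log2 scale (adjusted p = 5.7e-06, limma), yet stayed below *SJAG_03293* in the same libraries. In *clr4-1* its difference of 0.25 was at the threshold (adjusted p = 0.0499, limma), and it was no longer called without WT replicate 1 (0.17, adjusted p = 0.137, limma) or without either *clr4-1* library.

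Among genes that break down other amino acids and urea, 5 of the 8 tested rose and 2 fell in *pab2*Δ, beside 53.8% and 19.9% of all genes. In *clr4-1* 2 rose and 2 fell, beside 15.1% and 27.5%. After TMM scaling 3 rose and 2 fell in *pab2*Δ. *SJAG_03398*, described as arginase, was at 401 and 421 FPKM in *pab2*Δ and at 225 and 229 FPKM in WT, a rise of 0.85 (adjusted p = 6.1e-06, limma). *SJAG_05351*, a predicted asparaginase gene, rose by 0.60 in *pab2*Δ (adjusted p = 0.00103, limma). *car2*, the ornithine aminotransferase gene, rose in both mutants, by 0.39 in *pab2*Δ (adjusted p = 0.000322, limma) and 0.33 in *clr4-1* (adjusted p = 0.00219, limma). Among the urease genes, *ure7* fell by 0.48 and *ure2* by 0.32 in *clr4-1* (adjusted p = 0.000189 and 0.00522, limma). *put1*, the proline dehydrogenase gene whose product opens the route from proline to glutamate, was below the filter. It had 2.26 and 1.97 FPKM in *pab2*Δ, 0.126 and 0.151 FPKM in *clr4-1*, against 0.0397 and 0.0377 FPKM in WT.

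The tricarboxylic acid cycle receives succinate and supplies 2-oxoglutarate. Of 14 genes of the cycle, 5 rose and 5 fell in *pab2*Δ, beside 53.8% and 19.9% of all genes. In *clr4-1* 1 rose and 8 fell, beside 15.1% and 27.5%. After TMM scaling 3 rose and 10 fell in *pab2*Δ, and 1 rose and 5 fell in *clr4-1*. Genes for succinate dehydrogenase subunits were among the rises in *pab2*Δ. *sdh3* was at 12.8 and 11.9 FPKM in *pab2*Δ and at 1.39 and 3.09 FPKM in WT (2.10, adjusted p = 0.00054, limma), and *sdh2* rose by 0.90 (adjusted p = 0.00131, limma). *fum1*, the next enzyme, fell in both mutants, by 0.68 in *pab2*Δ (adjusted p = 2.98e-05, limma) and by 0.78 in *clr4-1* (adjusted p = 7.79e-05, limma). The citrate synthase gene *cit1* fell by 0.61 in *clr4-1* (adjusted p = 0.000126, limma), and *sdh1* fell there by 0.44 (adjusted p = 0.015, limma), a call that was lost without either WT library.

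Glycine feeds the one-carbon pool. Of 14 genes of glycine, serine, lipoate and one-carbon metabolism, *dld1* included, 6 rose and 7 fell in *pab2*Δ, beside 53.8% and 19.9% of all genes. In *clr4-1* 3 rose and 6 fell, beside 15.1% and 27.5%. After TMM scaling 2 rose and 8 fell in *pab2*Δ, and 3 rose and 2 fell in *clr4-1*. *ade9*, described as a C1-tetrahydrofolate synthase, was at 32.8 and 32.5 FPKM in *pab2*Δ, against 66.8 and 65.7 FPKM in WT, a fall of 1.00 (adjusted p = 3.21e-06, limma). In *clr4-1* *ade9* rose by 0.25 (adjusted p = 0.00214, limma). *thf1*, with a similar description, fell in both mutants, by 0.68 in *pab2*Δ and 0.37 in *clr4-1* (adjusted p = 8.14e-05 and 0.00303, limma). Of the genes described as methylenetetrahydrofolate reductases, *met9* rose by 0.87 in *pab2*Δ (adjusted p = 7.34e-06, limma). *mtd1* rose in both mutants, by 0.53 in *pab2*Δ and 0.55 in *clr4-1* (adjusted p = 9.21e-05 and 0.00041, limma). The threonine aldolase gene *gly1*, a source of glycine, fell by 0.40 in *clr4-1* (adjusted p = 0.000845, limma). It was also below WT in *pab2*Δ (-0.285, adjusted p = 0.000735, limma).

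The products of the 8 transaminase genes exchange amino groups with glutamate. Of these genes, 2 rose and 6 fell in *pab2*Δ, beside 53.8% and 19.9% of all genes. In *clr4-1* 3 rose and 2 fell, beside 15.1% and 27.5%. After TMM scaling 1 rose and 6 fell in *pab2*Δ. *arg1*, the acetylornithine aminotransferase gene of arginine synthesis, fell by 1.13 in *pab2*Δ and 0.74 in *clr4-1* (adjusted p = 3.21e-06 and 6.38e-05, limma). *caa1*, an aspartate aminotransferase gene, fell by 0.34 and 0.46 (adjusted p = 0.000531 and 0.000668, limma).

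Genes for nitrogen uptake and its regulation all fell in *clr4-1* (5 of 5), where 27.5% of all genes were called lower. In *pab2*Δ 1 rose and 2 fell, beside 53.8% and 19.9% of all genes. After TMM scaling 4 of the 5 fell in *pab2*Δ. The ammonium transporter gene *amt1* had 28.0 and 29.6 FPKM in *pab2*Δ, 24.2 and 24.0 FPKM in *clr4-1*, against 64.6 and 66.7 FPKM in WT. It fell by 1.16 in *pab2*Δ and by 1.41 in *clr4-1* (adjusted p = 6.31e-06 and 1.94e-05, limma). The proline permease gene *put4* fell by 1.15 and 1.68 (adjusted p = 0.000131 and 0.000151, limma). *amt2* fell by 0.91 in *clr4-1* (adjusted p = 7.75e-05, limma), and its difference in *pab2*Δ was 0.00026 (adjusted p = 0.998, limma). After TMM scaling *amt2* was -0.209 from WT in *pab2*Δ (adjusted p = 0.00767, limma). *dip5*, which has no description in the table, rose by 1.10 in *pab2*Δ and fell by 0.86 in *clr4-1* (adjusted p = 0.000369 and 0.00341, limma).

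**Figure D4:**
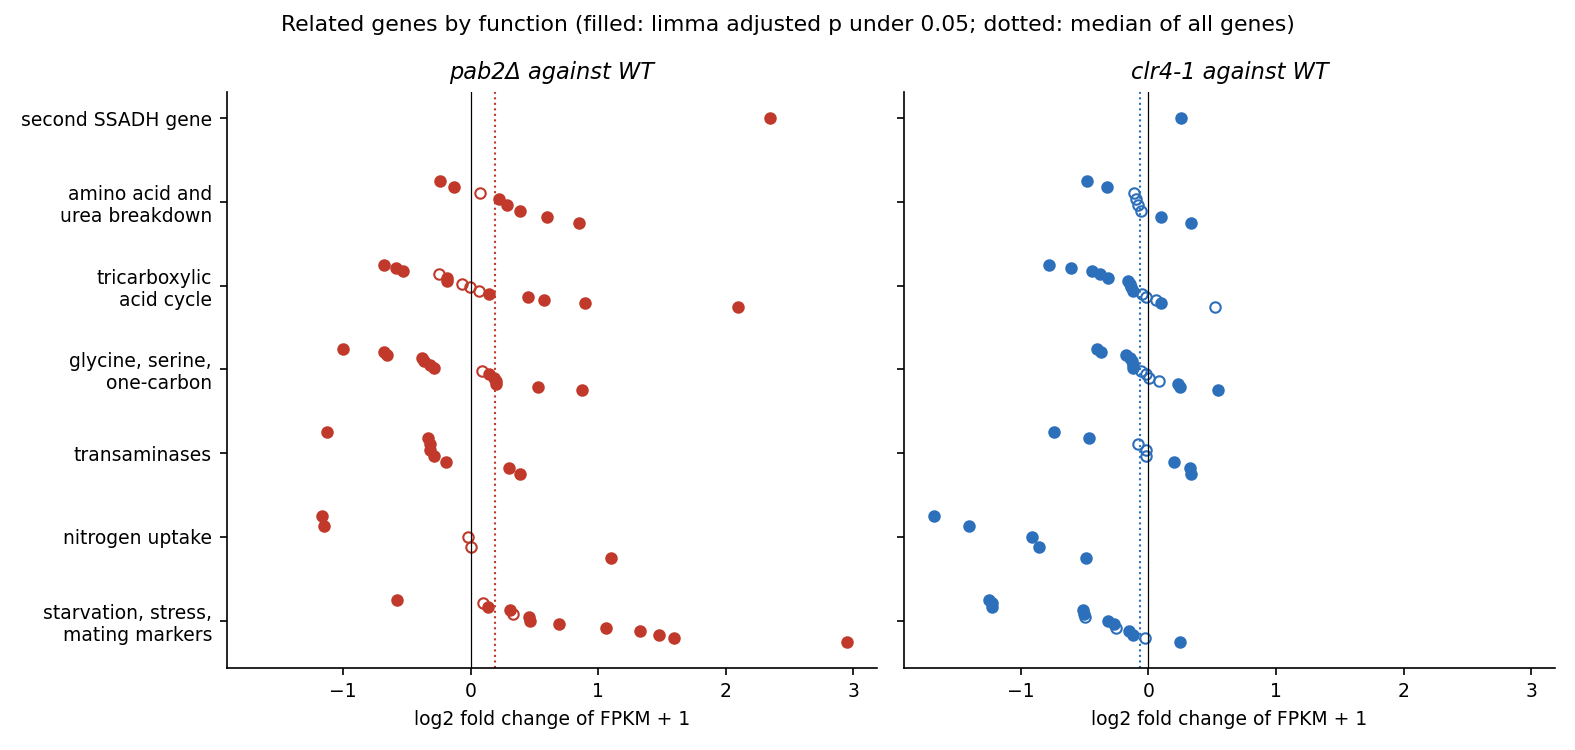
Log2 fold change of FPKM + 1 from WT (horizontal axes) of related genes grouped by function, in *pab2*Δ (left) and *clr4-1* (right). Each point is 1 gene, filled where the adjusted p from limma was under 0.05, and dotted lines are the medians of all genes tested. The points of the 5 nitrogen uptake genes all lie below 0 in *clr4-1*, and the other succinate-semialdehyde dehydrogenase gene (SSADH) lies at 2.35 in *pab2*Δ.

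Markers of starvation, stress and mating also moved in both mutants. All 13 of the list were above 0 in every library. Of them 10 rose and 1 fell in *pab2*Δ (53.8% and 19.9% of all genes), and 1 rose and 9 fell in *clr4-1* (15.1% and 27.5%). After TMM scaling 8 rose and 2 fell in *pab2*Δ (1612 and 1692 of all 4899 genes). In *clr4-1* 1 then rose and 7 fell (1030 and 865 of all genes). Their summed level was 5720 and 5864 FPKM in *pab2*Δ, 1007 and 978 FPKM in *clr4-1*, against 1176 and 1223 FPKM in WT. The 7 starvation and stress markers all rose in *pab2*Δ, where *gpd1* was -0.075 from WT after TMM scaling. Of the 6 sexual differentiation markers 3 rose there, *mei2* fell by 0.58 (adjusted p = 8.15e-05, limma), and *ste11* and *map2* were not called. The summed level of these 6 was 67.2 and 66.1 FPKM in *pab2*Δ, 36.6 and 36.5 FPKM in *clr4-1*, against 62.8 and 64.6 FPKM in WT. Most of the sum over all 13 was the heat shock protein gene *hsp9*, at 4682 and 4810 FPKM in *pab2*Δ, 568 and 534 FPKM in *clr4-1*, against 592 and 633 FPKM in WT. The trehalase gene *ntp1* rose by 1.59 and the invertase-like gene *inv1* by 1.48 in *pab2*Δ (adjusted p = 1.81e-06 and 1.19e-06, limma). *isp6*, a protease gene, rose by 1.33 in *pab2*Δ (adjusted p = 1.12e-06, limma). In *clr4-1* the mating regulator *ste11* fell by 1.25, *isp6* by 1.22 and the meiotic regulator *mei2* by 1.22 (adjusted p = 0.00193, 7.02e-06 and 2.93e-05, limma). The part of these marker differences in the levels of the 8 genes was not tested.

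Genes with the most similar pattern were sought by the distance, over the 6 libraries, of log2(FPKM + 1) from the WT mean. Of 4898 other genes, the closest to *uga1* were *SJAG_04135*, described as an amino acid permease gene (distance 0.25), the uracil permease gene *SJAG_04714* (0.36) and *SJAG_03293* (0.50). *SJAG_04135* had 8.15 and 8.31 FPKM in *pab2*Δ, 5.64 and 5.59 FPKM in *clr4-1*, against 33.6 and 32.5 FPKM in WT. Closest to *gdh1* were *SJAG_02734*, which has no description (0.40), *SJAG_00522*, a predicted mitochondrial carrier of 2-oxoadipate and 2-oxoglutarate (0.41), and *gln1* (0.43). *SJAG_00522* had 54.4 and 56.3 FPKM in *pab2*Δ, 156 and 166 FPKM in *clr4-1*, against 178 and 176 FPKM in WT. Closest to *gcv2* were the predicted alanine racemase gene *SJAG_04827* (0.11), the zinc-cluster transcription factor gene *SJAG_02569* (0.23) and *SJAG_03608*, which has no description (0.25). The ranks of *gcv1* and *gcv3* by distance from *gcv2* were 177 and 1537.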

How the data were processed

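Total RNA of 3 strains, 2 libraries each, was sequenced by the authors with a strand-specific kit. The authors deposited 1 table of gene levels, taken as FPKM values that they had scaled to gene length and library size before deposit. The unit is not written in the table and was read from fractional values and library sums that differ, from 910209 to 1080821. The submitters' processing notes name FastQC 0.11.6, STAR 2.5.3a and StringTie 1.3.1c. Genome build, annotation and treatment of reads shared by copies are not given in the sources used here, so genes with close copies are uncertain and no coordinates are printed. No whole reads could be recovered, and depth is therefore unknown, with no interval for counting error. The 4 columns of the authors' mutant to WT ratios were not used. WT and *clr4-1* columns carry replicate numbers and *pab2*Δ columns carry none.

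Genes averaging 1 FPKM or more entered 1 model of 3 strains, fitted in limma 3.58.1 under R 4.3.3 to log2(FPKM + 1) with an intensity trend, and Benjamini-Hochberg adjustment over 4899 genes. This scale understates changes of low genes. The fit was tested on simulated data with known changes. The members and lists were chosen with earlier results of these data known. From each list the 3 largest called changes per mutant are named, with *dld1*, the members, 3 nearest patterns for each of 3 members, *pab2* and *clr4*. Genes named otherwise (*put1*, *amt2*, *gly1*, *mei2*, *mtd1*, *isp6*, *gpd1*, *ste11* and *map2* in *pab2*Δ, *ade9*, *dip5* and *hsp9* in *clr4-1*, and all genes beside members) were chosen after their values were seen. After the gene descriptions were read, 6 genes of other functions were dropped from lists and *SJAG_01524* was added. RefSeq assembly SJ5 (5213 genes matched by locus tag) gave gene order only. The alternatives tried were a pseudocount of 0.1 or 5, all genes unfiltered or those averaging 5 FPKM, scaling to equal totals, TMM (30% of log ratios and 5% of levels trimmed) or equal medians, fits of 4 libraries, no trend, a replicate block, a 3-fold threshold, 1 FPKM added to ratios, and leaving out each library. Python 3.11.15, numpy 2.4.6, pandas 2.3.3 and matplotlib 3.10.9 were used.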

Additional observations from a re-analysis of the deposited data

How the results depend on the processing

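The 8 genes kept the sign of their called differences under all alternatives run, except *SJAG_03293* between *pab2*Δ and *clr4-1*, which was -0.12 after TMM scaling and -0.13 after scaling to equal median log ratios. *gcv1* in *pab2*Δ, not called with the deposited scaling, was 0.12 above WT with equal totals. With TMM and with equal medians, all genes called higher numbered 1612 and 1621 in *pab2*Δ against WT and lower 1692 and 1680, other pathway genes called higher there 10 and 10, and genes called lower in *clr4-1* 865 and 768. Between *pab2*Δ and *clr4-1* they gave 1688 and 1640 genes higher, 1690 and 1734 lower, 3 and 3 of the 8 genes higher, and 14 and 13 pathway genes higher and 22 and 24 lower. Equal totals gave 565 genes lower in *pab2*Δ against WT, 499 lower and 6 pathway genes lower against *clr4-1*, and 5 pathway genes higher in *clr4-1*. With a 3-fold threshold 3 of the 8 genes were lower in *pab2*Δ (5 at 2-fold). Of the pathway genes 0 were then lower in *pab2*Δ (4 at 2-fold) and 1 in *clr4-1* (3 at 2-fold). With 1 FPKM added to both values 4 of the 8 genes met the 2-fold decrease in *pab2*Δ, and *gcv2* no longer did. Above 2-fold in *clr4-1* were then 0 pathway genes (1 with nothing added). The share of all genes was not counted at 3-fold or with 1 FPKM added. Leaving out 1 library gave 750 to 909 genes lower in *clr4-1*, 0 of the 8 genes higher (1 with all) and 4 to 6 pathway genes higher (9 with all). All genes called higher in *clr4-1* also became fewer whenever 1 library was left out, so this loss was not particular to the 8 genes or the pathway genes. The cause of these changes was not tested.

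WT and *clr4-1* share replicate numbers. The differences between replicates 1 and 2 of these strains correlated at -0.094 across 4899 genes. With 1 such difference per strain, this cannot tell whether libraries of the same number shared a batch. With the replicate number as a block over 4 libraries, 828 genes were lower in *clr4-1* and 573 were higher (740 with all libraries and no block). Of the 8 genes 0 were then higher, and 5 pathway genes were higher. No paired analysis was run for *pab2*Δ because its columns carry no replicate number. With 2 libraries per strain and unknown depth, differences near the spread between libraries cannot be resolved.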

Other observations

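The genes directly beside the 8 genes in the RefSeq order of assembly SJ5 were read from the same fit. Of these 16 neighbours, 8 rose and 2 fell in *pab2*Δ (53.8% and 19.9% of all genes), and 1 rose and 4 fell in *clr4-1* (15.1% and 27.5%). *sce3*, beside *uga1*, was -2.37 from WT in *pab2*Δ (adjusted p = 3.17e-07, limma) and -0.024 in *clr4-1* (adjusted p = 0.541, limma). *atg43*, the autophagy gene on the other side of *uga1*, was -0.061 from WT in *pab2*Δ (adjusted p = 0.422, limma) and fell by 0.31 in *clr4-1* (adjusted p = 0.0141, limma). *SJAG_03640*, beside *gcv3*, rose by 2.05 in *pab2*Δ (adjusted p = 9.87e-05, limma), where *gcv3* itself was 0.34 above WT.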
